A study of Mus musculus with 9 samples.

Results

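Muscle fibres receive the motor nerve at the neuromuscular junction, and 10 genes of its postsynaptic side are described here in cells sorted from mouse forelimb buds before any junction has formed. They are the 5 subunits of the muscle acetylcholine receptor (Chrna1, Chrnb1, Chrnd, Chrng and Chrne) and 5 genes of receptor clustering (Rapsn, Musk, Dok7, Agrn and Lrp4). They were taken as a list of names, and are 10 of the 18193 genes with a probe set that maps to 1 gene symbol. Between them they hold 14 of the 45037 probe sets tested. For a gene with several, the brightest on average stands for it, and the remaining 4 probe sets serve as a check.

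The muscle receptor is a ligand-gated ion channel of several subunits that opens when acetylcholine from the nerve binds to it. Embryonic receptors contain the gamma subunit, which is replaced by epsilon in adult muscle. Agrin released by the motor nerve binds LRP4, which activates the receptor kinase MuSK together with its adaptor DOK7, and rapsyn then holds the receptors in clusters. Myogenic factors such as MyoD and myogenin bind E-boxes and are known to turn on the receptor genes when muscle cells differentiate.

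Cells were sorted from forelimb buds at E10.5 into 3 groups. PAX3-FKHR GFP+ cells came from embryos of genotype Pax3PAX3-FKHR/GFP and control GFP+ cells from embryos of genotype Pax3GFP/+. The GFP- group holds negative cells of the bud, whose genotype is not in the labels. The study describes them as coming from Pax3GFP/+ embryos, though its methods also name Pax3+/+ among the groups hybridised. Both GFP+ groups carry a Pax3 allele that expresses GFP, by which myogenic progenitors were sorted. The other allele is wild type in control cells. In PAX3-FKHR GFP+ cells it encodes PAX3-FKHR, a fusion of the DNA binding domain of Pax3 with the activation domain of FKHR, switched on by crossing with a PGK-Cre line that acts in all cells. Each group has 3 arrays of amplified RNA, each made from cells pooled over many embryos, so p-values measure the spread between such pools. All values given per array are log2 values made with RMA, and SDs are over n = 3 arrays. Levels of different genes cannot be set against each other, since probe sets differ in brightness.

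The sort was checked against markers, and 8 of 8 measured limb muscle progenitor genes were higher in control GFP+ than in GFP- cells. Of 8 limb mesenchyme markers 6 showed the reverse, while Meox2 was higher in control GFP+ cells and 1 did not pass. Pax3 itself was at 7.15, 6.83 and 7.33 with PAX3-FKHR and at 9.92, 8.94 and 10.22 in control GFP+ cells. Markers of further cell types were present as well. In control GFP+ against GFP- cells 8 of 10 markers of differentiated skeletal muscle were higher too. So were 3 of 6 of neurons and 3 of 4 of neural crest, whereas 0 of 6 motor neuron markers passed the test. In PAX3-FKHR GFP+ against GFP- cells 1 of these 6, Isl1, was higher. Some arrays stand apart. Control GFP+ replicate 3 got the lowest array weight, 0.236, against 0.604 to 2.69 for the other arrays, and its differentiated muscle markers averaged 6.81, where replicates 1 and 2 gave 7.47 and 7.44. In GFP- replicate 3, heart muscle markers averaged 6.36 against 4.41 and 4.48. GFP- replicate 1 had lower levels of some markers, as those of blood averaged 6.67 there against 9.58 and 10.48 on GFP- replicates 2 and 3, and those of limb ectoderm 6.0 against 6.81 and 7.32. Values without both replicate 3 arrays named here, an alternative added after the values were seen, are given where a call or a size turned on them. In such bulk samples fewer cells of a type and less RNA per cell cannot be told apart.

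The region before the transcription start is shown for the 3 receptor genes that differed between groups in any comparison, Chrna1, Chrnb1 and Chrng, and for the adult subunit gene Chrne. The sequences are those of RefSeq on GRCm38.p6, 5′ to 3′ on the coding strand, with E-boxes (CANNTG, found on both strands at once because the motif is its own complement) in capitals.
Chrna1, chr2:73580339-73580588, minus strand: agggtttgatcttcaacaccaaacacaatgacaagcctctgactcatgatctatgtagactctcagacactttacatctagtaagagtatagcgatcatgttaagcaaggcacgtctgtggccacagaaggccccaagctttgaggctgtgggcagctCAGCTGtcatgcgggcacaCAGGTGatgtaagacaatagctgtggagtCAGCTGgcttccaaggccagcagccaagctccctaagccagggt
Chrng, chr1:87205561-87205810, plus strand: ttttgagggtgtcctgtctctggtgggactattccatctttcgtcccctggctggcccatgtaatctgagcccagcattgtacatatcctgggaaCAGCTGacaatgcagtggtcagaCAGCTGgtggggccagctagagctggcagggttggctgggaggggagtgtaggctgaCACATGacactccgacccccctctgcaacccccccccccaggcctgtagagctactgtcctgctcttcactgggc
Chrnb1, chr11:69795967-69796187, minus strand: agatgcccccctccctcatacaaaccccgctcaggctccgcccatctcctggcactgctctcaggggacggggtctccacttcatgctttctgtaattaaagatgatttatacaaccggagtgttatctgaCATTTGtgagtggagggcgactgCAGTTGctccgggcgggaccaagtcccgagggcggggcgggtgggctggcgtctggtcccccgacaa
Chrne, chr11:70619214-70619444, minus strand: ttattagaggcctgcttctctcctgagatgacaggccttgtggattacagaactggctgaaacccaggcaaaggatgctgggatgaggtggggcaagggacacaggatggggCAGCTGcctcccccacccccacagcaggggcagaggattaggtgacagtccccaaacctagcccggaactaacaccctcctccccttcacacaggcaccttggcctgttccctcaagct

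Within the 250 bases before the start, Chrna1 and Chrng each held 3 E-boxes, of which 2 had the core CAGCTG. Chrnb1 had 3 E-boxes, 2 of them in the bases shown, and 0 with that core. The bases shown stop where the annotated gene begins, after 221 for Chrnb1 and 231 for Chrne. The rest of their 250 bases overlaps the gene, and the third E-box of Chrnb1 reaches into that part. The Chrne region held 1 E-box, a CAGCTG, and 1 N-box (CCGGAA, searched on both strands), the element of synapse-specific genes. Of 32851 promoters of the same length, 66.2% held an E-box, 12.2% at least 3, 13.0% a CAGCTG, 1.26% at least 2 of these, and 12.0% an N-box. The match of letters is a description and no evidence of binding.

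Chrnb1, the beta subunit present in both embryonic and adult receptors, showed the widest span of the 10 genes. The 3 PAX3-FKHR GFP+ arrays read 7.54, 7.36 and 7.09. Those of control GFP+ cells read 6.27, 5.95 and 5.43, and those of GFP- cells 4.02, 3.9 and 4.65. The groups did not overlap at either step, and the group means were 7.33 ± 0.23, 5.89 ± 0.42 and 4.19 ± 0.40. With PAX3-FKHR the transcript rose by a log2 fold change of 1.44 (SE 0.25, 2.72-fold, 95% confidence interval 0.89 to 2.00, limma adjusted p = 0.0364). Within replicate numbers the difference was 1.27, 1.4 and 1.66. Since these groups did not overlap, any pairing of their arrays gives differences of the same sign. Control GFP+ exceeded GFP- cells by 1.70 (SE 0.25, 3.24-fold, adjusted p = 0.00362), and PAX3-FKHR GFP+ exceeded GFP- cells by 3.14 (8.82-fold, adjusted p = 5.23e-05). All GFP- values lay below the array median of 5.11, where a low transcript cannot be separated from background. The size of both folds against GFP- cells is therefore uncertain. The study lists this probe set among genes selected on these same arrays, so its direction is not independent evidence.

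The Chrnb1 call with PAX3-FKHR lies close to the threshold. With the replicate number as a block, adjusted p was 0.0715 over all 9 arrays and 0.00631 over the 6 arrays compared, and without a block over those 6 arrays it was 0.0826. It was 0.16, 0.147 and 0.0773 when PAX3-FKHR GFP+ replicate 1, 2 or 3 was left out, and 0.0821 and 0.0882 without control GFP+ replicate 2 or 3. Without control GFP+ replicate 3 and GFP- replicate 3 together, the log2 fold change was 1.22 with an adjusted p of 0.0252. The fold change stayed between 1.22 and 1.64 whichever of the 6 arrays was left out. For control GFP+ against GFP- cells, the block over the 6 arrays gave an adjusted p of 0.0526, and no single array removed that call.

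**Figure D1:**
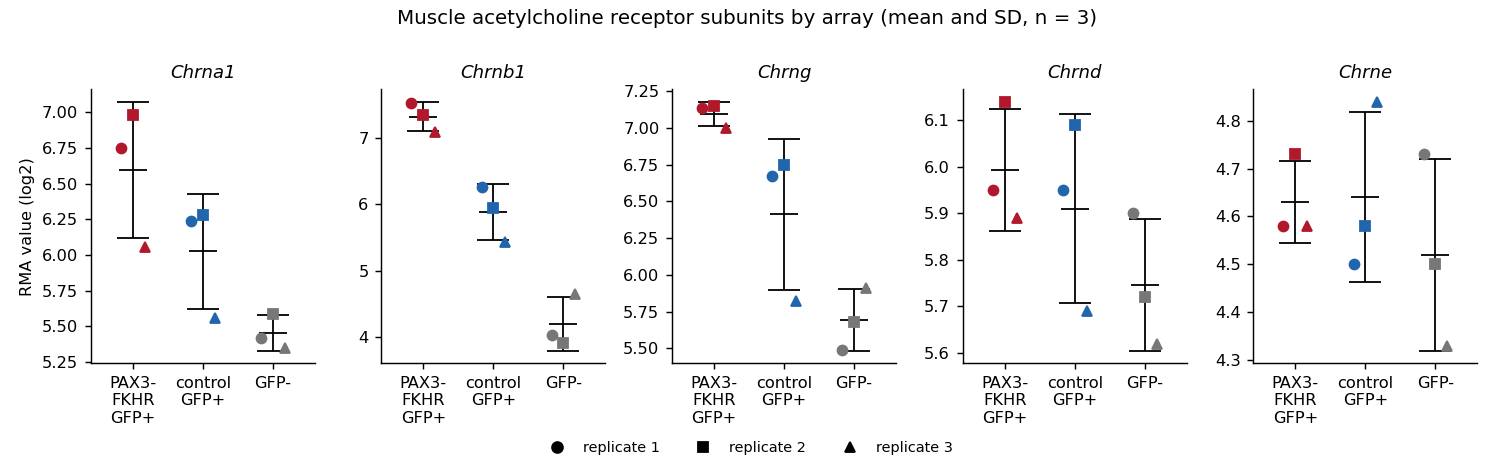
RMA values (log2, each panel with its own scale) of the 5 receptor subunit genes on the 9 arrays, with group mean and SD (n = 3). Chrnb1 steps down from PAX3-FKHR GFP+ to control GFP+ to GFP- cells with no overlap, while Chrnd and Chrne overlap in all groups.

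Chrna1 encodes the alpha subunit, which carries most of the acetylcholine binding site. Its values were 6.75, 6.98 and 6.06 with PAX3-FKHR, 6.24, 6.28 and 5.56 in control GFP+ cells and 5.42, 5.59 and 5.35 in GFP- cells. The lower array of each GFP+ group was replicate 3, and both GFP+ groups overlapped. The log2 fold change with PAX3-FKHR was 0.57 (95% confidence interval 0.00 to 1.14, adjusted p = 0.693), and control GFP+ against GFP- cells gave 0.57 (0.01 to 1.14, adjusted p = 0.225). Without control GFP+ replicate 3 these were 0.34 (adjusted p = 0.85) and 0.81 (adjusted p = 0.0828). Only the difference of PAX3-FKHR GFP+ from GFP- cells passed the test, at 1.14 (SE 0.25, 2.21-fold, adjusted p = 0.0232). That call was lost without PAX3-FKHR GFP+ replicate 1 (adjusted p = 0.078) or 2 (0.102) and without GFP- replicate 1 (0.0787), 2 (0.0567) or 3 (0.0693).

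Chrng, the gamma subunit of embryonic receptors, read 7.14, 7.15 and 7.0 with PAX3-FKHR. Control GFP+ arrays gave 6.67, 6.75 and 5.82, and GFP- arrays 5.49, 5.68 and 5.91. All PAX3-FKHR GFP+ arrays were above all others, while control GFP+ replicate 3 fell below the highest GFP- array, GFP- replicate 3. The log2 fold change with PAX3-FKHR was 0.69 (95% confidence interval 0.17 to 1.20, adjusted p = 0.492), and control GFP+ against GFP- cells gave 0.72 (0.20 to 1.23, adjusted p = 0.104). With PAX3-FKHR it was 0.39 without control GFP+ replicate 3 (adjusted p = 0.614) and 0.16 with the probe sets of the gene averaged (adjusted p = 0.671). PAX3-FKHR GFP+ cells were higher than GFP- cells by 1.4 (SE 0.23, 2.64-fold, adjusted p = 0.00505), whichever array was left out. Without control GFP+ replicate 3, control GFP+ exceeded GFP- cells by 1.01 (adjusted p = 0.00588), and without GFP- replicate 3 as well by 1.12 (adjusted p = 0.00434). The other 2 Chrng probe sets lay between 2.70 and 3.51 on all arrays, and neither passed the test in any comparison. The dimmer of them was higher in control GFP+ than in GFP- cells by 0.48 with an adjusted p of 0.031, which is under the fold change asked for.

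Chrnd, the delta subunit, varied little. Its arrays read 5.95, 6.14 and 5.89 with PAX3-FKHR, 5.95, 6.09 and 5.69 in control GFP+ cells and 5.90, 5.72 and 5.62 in GFP- cells. The groups overlapped in each comparison. The log2 fold change with PAX3-FKHR was 0.08, with an interval of -0.24 to 0.41, and that of PAX3-FKHR GFP+ against GFP- cells was 0.25, with an interval of -0.08 to 0.57. Changes within these intervals are not excluded by the values. The intervals are not limits of detection, since the test also adjusts over all probe sets.

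Chrne, the epsilon subunit of adult receptors, lay between 4.33 and 4.84 on all 9 arrays. Its group means were 4.63 ± 0.09, 4.64 ± 0.17 and 4.52 ± 0.20 in PAX3-FKHR GFP+, control GFP+ and GFP- cells. The values are below the median of the arrays, 5.11, where RMA values cannot separate a low transcript from background. The confidence interval with PAX3-FKHR was -0.30 to 0.28.

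Rapsn, which encodes the scaffold protein rapsyn, was close to constant within PAX3-FKHR GFP+ cells. It read 6.09, 6.07 and 6.19 with PAX3-FKHR, 5.49, 5.72 and 4.98 in control GFP+ cells and 4.95, 4.64 and 4.67 in GFP- cells. As for Chrnb1, no group overlapped the next, though control GFP+ replicate 3 was close to GFP- replicate 1. That array and all GFP- arrays lay below the array median of 5.11, so the size of differences from GFP- cells is uncertain. PAX3-FKHR GFP+ cells were higher than GFP- cells by a log2 fold change of 1.36 (SE 0.18, 2.57-fold, adjusted p = 0.00149), and this call held whichever array was left out. Neither step on its own passed the test. The log2 fold change with PAX3-FKHR was 0.72 (0.32 to 1.12, adjusted p = 0.205) and that of control GFP+ against GFP- cells 0.64 (0.24 to 1.04, adjusted p = 0.0668). Without control GFP+ replicate 3 these became 0.51 and 0.85, and the latter passed the test (adjusted p = 0.00864). Over the 9 arrays, the order PAX3-FKHR GFP+ above control GFP+ above GFP- with no overlap was met by Chrnb1 and Rapsn, 2 of 10 genes, and by 1.01% of all probe sets.

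Musk, the receptor tyrosine kinase of the postsynaptic membrane, stayed below the array median. Its arrays read 4.71, 5.03 and 4.58 with PAX3-FKHR, 4.65, 4.51 and 4.43 in control GFP+ cells and 4.28, 4.38 and 4.23 in GFP- cells. Both GFP+ groups lay above GFP- cells without overlap. The difference of PAX3-FKHR GFP+ from GFP- cells, 0.48, had an adjusted p of 0.0516 and was also under the fold change asked for. Without PAX3-FKHR GFP+ replicate 3 it was 0.58 with an adjusted p of 0.0464.

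Dok7, the cytoplasmic activator of MuSK, lay between 6.03 and 6.45. All arrays of both GFP+ groups were above all GFP- arrays, by 0.29 with PAX3-FKHR (0.01 to 0.56, adjusted p = 0.222) and by 0.23 in control cells (-0.05 to 0.50, adjusted p = 0.32). Between the GFP+ groups the log2 fold change was 0.06 (-0.21 to 0.34). A further, dimmer Dok7 probe set lay between 4.23 and 4.60 and its groups overlapped in each comparison.

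Agrn encodes agrin, a proteoglycan of basement membranes whose nerve-made form organises the junction. It was the 1 member with lower values in GFP+ cells on its brightest probe set. Arrays read 9.37, 9.44 and 9.06 with PAX3-FKHR, 9.50, 9.56 and 9.18 in control GFP+ cells and 9.91, 9.82 and 9.89 in GFP- cells. All GFP- arrays were above all GFP+ arrays, and the GFP+ groups overlapped. Against GFP- cells the log2 fold change was -0.58 with PAX3-FKHR (SE 0.15, adjusted p = 0.04) and -0.46 in control GFP+ cells (adjusted p = 0.10). The call did not hold without any 1 of the 6 arrays (adjusted p 0.0767 to 0.133). A dim Agrn probe set, between 4.09 and 4.54, went the other way in control GFP+ against GFP- cells, at 0.33 (adjusted p = 0.0565), and in PAX3-FKHR GFP+ against GFP- cells, at 0.15 (adjusted p = 0.409), with all GFP+ arrays above all GFP- arrays.

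Lrp4, the agrin receptor, showed no order. Its arrays read 5.24, 5.12 and 5.13 with PAX3-FKHR, 4.80, 5.03 and 5.91 in control GFP+ cells and 5.04, 5.45 and 4.71 in GFP- cells. Control GFP+ replicate 3 held the highest value and control GFP+ replicate 1 was below 2 of the GFP- arrays. Its fit had the largest SE of the 10 genes, 0.27, and the interval with PAX3-FKHR was -0.68 to 0.51.

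**Figure D2:**
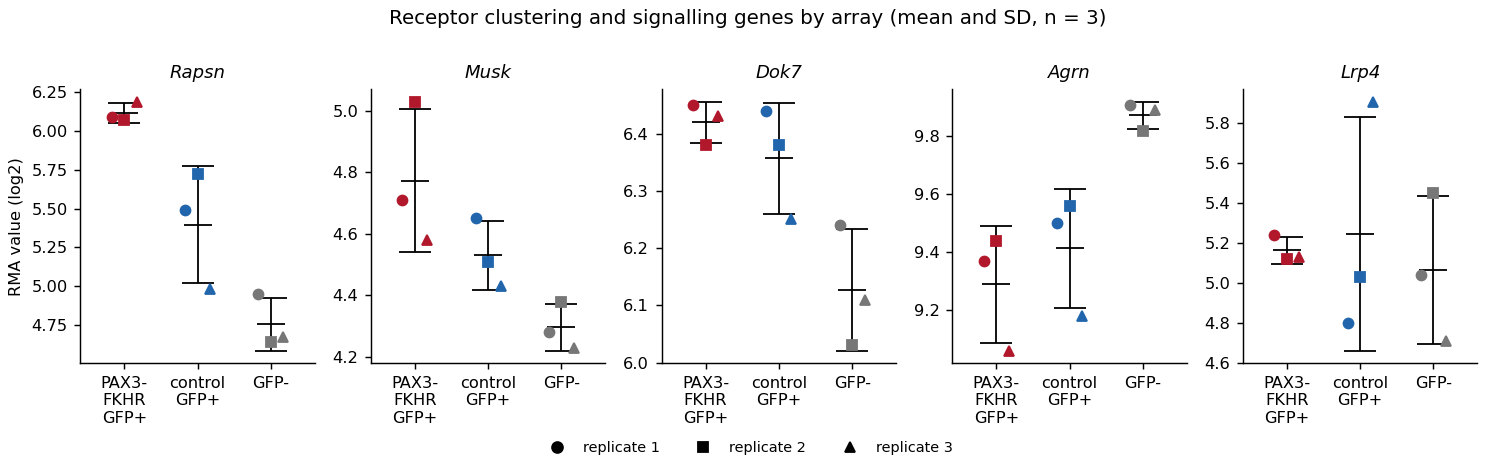
RMA values (log2, each panel with its own scale) of 5 receptor clustering and signalling genes on the 9 arrays, with group mean and SD (n = 3). Rapsn steps down over the 3 groups with no overlap, Agrn is highest in the GFP- arrays, and Lrp4 is scattered.

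Of the 10 genes, 1 passed the test with PAX3-FKHR against control GFP+ cells, Chrnb1, which was higher. Of all probe sets, 0.537% passed there in either direction and 0.395% as higher. Again 1 gene passed in control GFP+ against GFP- cells, Chrnb1 as higher, beside 5.84% of all probe sets in either direction and 1.84% as higher. In PAX3-FKHR GFP+ against GFP- cells 5 genes passed, beside 6.80% of all probe sets, and 4 of them were higher (Chrna1, Chrnb1, Chrng and Rapsn), beside 2.80%. The comparisons share arrays, and the last is the sum of the other two. Groups did not overlap for 3 genes with PAX3-FKHR, all above (12.0% of all probe sets in either direction), for 5 in control GFP+ against GFP- cells, of which Agrn was below (25.0%), and for 7 in PAX3-FKHR GFP+ against GFP- cells, with Agrn again below (27.5%). Median log2 fold changes over the 10 genes were 0.16, 0.23 and 0.38, beside -0.01, 0.06 and 0.04 over all probe sets. Of the 10 genes, 8 were above the array median of 5.11 on at least 3 arrays, and Chrne and Musk were not. With 3 arrays against 3 the smallest two-sided p of an exact permutation test for a single gene is 0.1, the value obtained for each comparison without overlap.

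**Figure D3:**
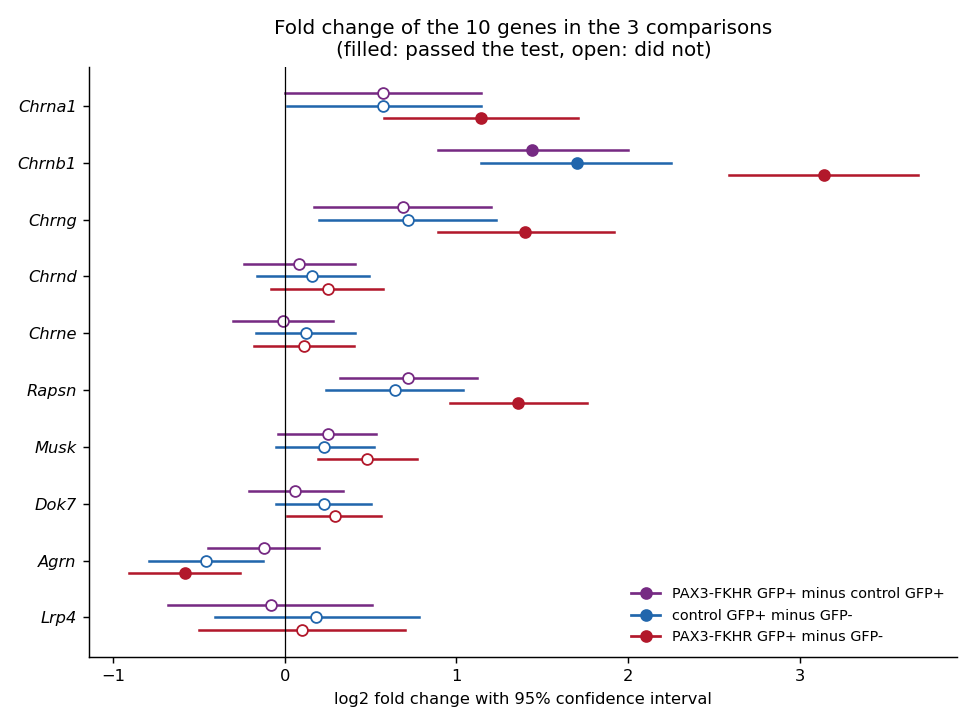
Log2 fold change with 95% confidence interval of the 10 genes in the 3 comparisons, filled where the gene passed the test. The 5 genes with a filled point for PAX3-FKHR GFP+ against GFP- cells are Chrna1, Chrnb1, Chrng, Rapsn and Agrn, while Chrnb1 alone is filled in the other comparisons.

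Markers of differentiated skeletal muscle ranked the arrays much as the receptor genes did. Their mean over 10 genes was 8.01, 8.0 and 7.57 with PAX3-FKHR, 7.47, 7.44 and 6.81 in control GFP+ cells and 4.99, 4.81 and 5.27 in GFP- cells. The mean over the 5 receptor subunits was 6.39, 6.47 and 6.12, then 5.93, 5.93 and 5.47, then 5.11, 5.08 and 5.17 in the same order. In both means replicate 3 was the lowest array of each GFP+ group and the highest of the GFP- group. This placing of replicate 3 is not particular to differentiated muscle. The marker means of heart muscle, neural crest, endothelium and blood showed it as well. With PAX3-FKHR 1 of the 10 differentiation markers passed the test, Tnnt1 of slow muscle, as higher (log2 fold change 1.30, adjusted p = 0.0327). By sign, 7 of the 10 were above 0 and 3 below 0, Myf6 among the latter (-0.75). The part of differentiated cells in the receptor values was not tested.

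**Figure D4:**
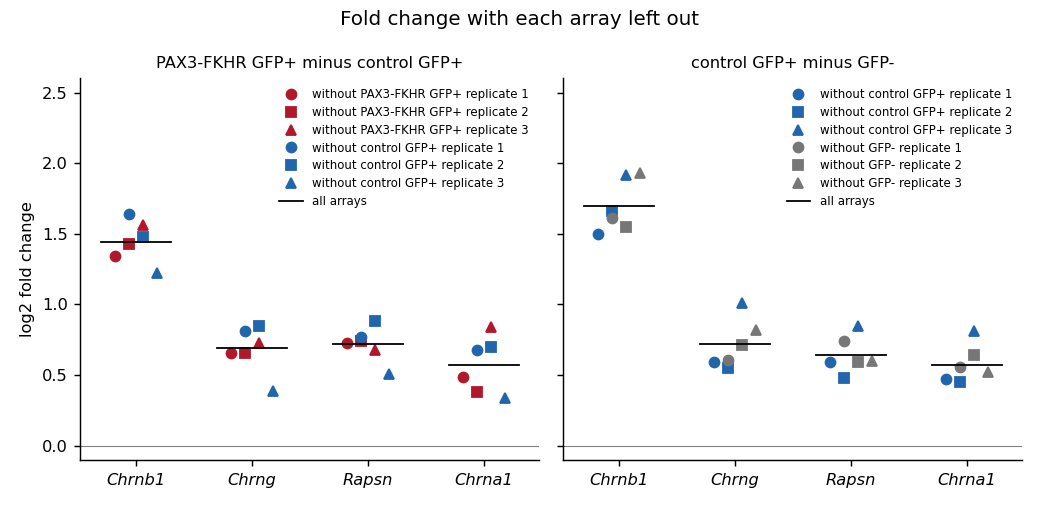
Log2 fold change of Chrnb1, Chrng, Rapsn and Chrna1 when 1 of the 6 arrays compared is left out (points, coloured by the group of the array left out), with the value over all arrays as a line. Leaving out control GFP+ replicate 3 gives the lowest value of each gene with PAX3-FKHR, down to 0.34 for Chrna1, and raises each in control GFP+ against GFP- cells.

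Likeness of pattern was measured by Pearson's r of the log2 values over the 9 arrays, among 1251 genes with an SD of at least 0.5, and is given with no test because the arrays fall into 3 groups. Closest to Chrnb1 were C1qtnf3 (r = 0.997), Scn3b (0.99), Dbx1 (0.989), Parm1 (0.989) and Fgf5 (0.987). The genes most like Chrng were Erbb3 (0.994), Lrrn1 (0.992), Rgs16 (0.992), Plagl1 (0.988) and Arpp21 (0.985). For Chrna1 they were Sytl2 (0.977), Chn2 (0.973), Klhl41 (0.97), Arpp21 (0.964) and Olfml2b (0.963), and for Chrnd, whose own SD was only 0.18, Pnmal2 (0.908), Nkain4 (0.905), Mamdc2 (0.897), Palmd (0.893) and Fndc5 (0.884). Arpp21 appears for both Chrna1 and Chrng. Among the members, Chrnb1 followed Chrng (0.958) and Rapsn (0.941) most closely and ran against Agrn (-0.755).

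Around the receptor, the synaptic basal lamina and the enzymes of acetylcholine breakdown gave 1 gene of 16 higher with PAX3-FKHR, Col13a1, a membrane collagen needed for junction maturation. Its arrays read 9.48, 9.83 and 9.80 with PAX3-FKHR, 8.0, 8.0 and 8.15 in control GFP+ cells and 5.79, 5.85 and 6.5 in GFP- cells. All 3 groups were separate. The log2 fold changes were 1.66 with PAX3-FKHR (SE 0.20, adjusted p = 0.00509) and 2.00 in control GFP+ against GFP- cells (adjusted p = 0.000385). Bche, butyrylcholinesterase, was higher in control GFP+ than in GFP- cells by 1.58 (adjusted p = 0.00154) and did not follow the same steps, since it read 6.15, 6.39 and 6.0 with PAX3-FKHR and 6.11, 6.63 and 6.0 in control GFP+ cells. These were the 2 genes of 16 that passed in that comparison. PAX3-FKHR GFP+ against GFP- cells had 3 higher, with netrin gene Ntn4 (0.56, adjusted p = 0.0365) beside these. There 1 was lower, Nid1 of the basement membrane protein nidogen (-1.16, adjusted p = 0.00278). Without control GFP+ replicate 3 and GFP- replicate 3, a further nidogen gene, Nid2, was lower there too. Against control GFP+ cells Nid2 (-0.81) and Nid1 (-0.72) were lower with PAX3-FKHR but did not pass. The list medians of the 3 comparisons, -0.03, 0.05 and 0.01, were near those of all probe sets. Acetylcholinesterase gene Ache, named for its role after its values were seen, lay between 3.75 and 4.23 on all arrays.

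Of 26 measured genes of the postsynaptic scaffold and its signalling, 0 passed the test in either direction with PAX3-FKHR. Control GFP+ cells had 2 higher than GFP- cells, Nes, an intermediate filament of progenitors and of the junction (1.24, adjusted p = 0.00139), and Sntb1, a syntrophin of the dystrophin complex (1.97, adjusted p = 0.022). Dmd, dystrophin, was lower by a log2 fold change of -1.17 (adjusted p = 0.0121). PAX3-FKHR GFP+ cells had 4 higher than GFP- cells, Nes (1.78), Sntb1 (2.25), Erbb3 (3.83, adjusted p = 0.00479) and Utrn (0.55, adjusted p = 0.0376). Erbb3, a neuregulin receptor also used by neural crest, read 10.27, 10.64 and 10.02 with PAX3-FKHR and 8.81, 9.64 and 6.66 in control GFP+ cells, against 5.92, 6.25 and 7.28 in GFP- cells. Control GFP+ replicate 3 lay below GFP- replicate 3, as for Chrng, and the log2 fold change of 1.94 with PAX3-FKHR had an adjusted p of 0.444. That difference of Erbb3 was 1.09 without control GFP+ replicate 3 (adjusted p = 0.559), and control GFP+ exceeded GFP- cells by 2.74 (adjusted p = 0.00533), where all arrays gave 1.89 (adjusted p = 0.113). Without GFP- replicate 3 as well, PAX3-FKHR GFP+ against GFP- cells lost the call of Utrn (0.54, adjusted p = 0.0508) and gained Erbb2 and Abl1 as lower, 2 of 26 where all arrays gave 0. List medians were 0.07, 0.12 and 0.06. Col13a1, Nes, Erbb3 and Myf5 are also in tables that the study selected on these arrays. Of these, Myf5 is reported there as up-regulated with PAX3-FKHR in forelimbs, from local pooled error tests after removal of probe sets called absent. In the limma test of all probe sets used here, Myf5 did not pass in that comparison.

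A list of 19 measured regulators of receptor gene promoters holds transcription factors along with deacetylases and Id genes, so its counts mix activators and inhibitors. With PAX3-FKHR 0 of them passed. In control GFP+ against GFP- cells 7 were higher and 2 lower, and in PAX3-FKHR GFP+ against GFP- cells 5 were higher and 2 lower. When control GFP+ replicate 3 and GFP- replicate 3 were both left out, the counts against GFP- cells were 7 higher and 1 lower for control GFP+ and 8 higher and 3 lower for PAX3-FKHR GFP+ cells. Myf5, Myog and Myod1, which drive muscle formation, had the largest of the list's differences from GFP- cells. In control GFP+ cells Myf5 was higher by 5.74, Myog by 3.9 and Myod1 by 3.33 (adjusted p 1.12e-05, 0.000734 and 0.00226). With PAX3-FKHR the log2 fold changes were 0.93, 1.04 and 1.16 (adjusted p 0.471, 0.645 and 0.609). Myf6, also a myogenic factor, and Dach2 went the other way, at -0.75 and -0.54, and did not pass. Of the 19 regulators, 9 were above 0 with PAX3-FKHR and 10 below 0. Myod1 read 8.57, 9.24 and 8.72 with PAX3-FKHR and 8.29, 8.37 and 6.38 in control GFP+ cells, with control GFP+ replicate 3 far below the rest. Without that array the difference with PAX3-FKHR was 0.51 for Myod1 (adjusted p = 0.666) and 0.50 for Myog (adjusted p = 0.825). Ets2, of the Ets family, whose members include N-box binding factors, had a log2 fold change of -1.66 for control GFP+ against GFP- cells (adjusted p = 0.000504).

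**Figure D5:**
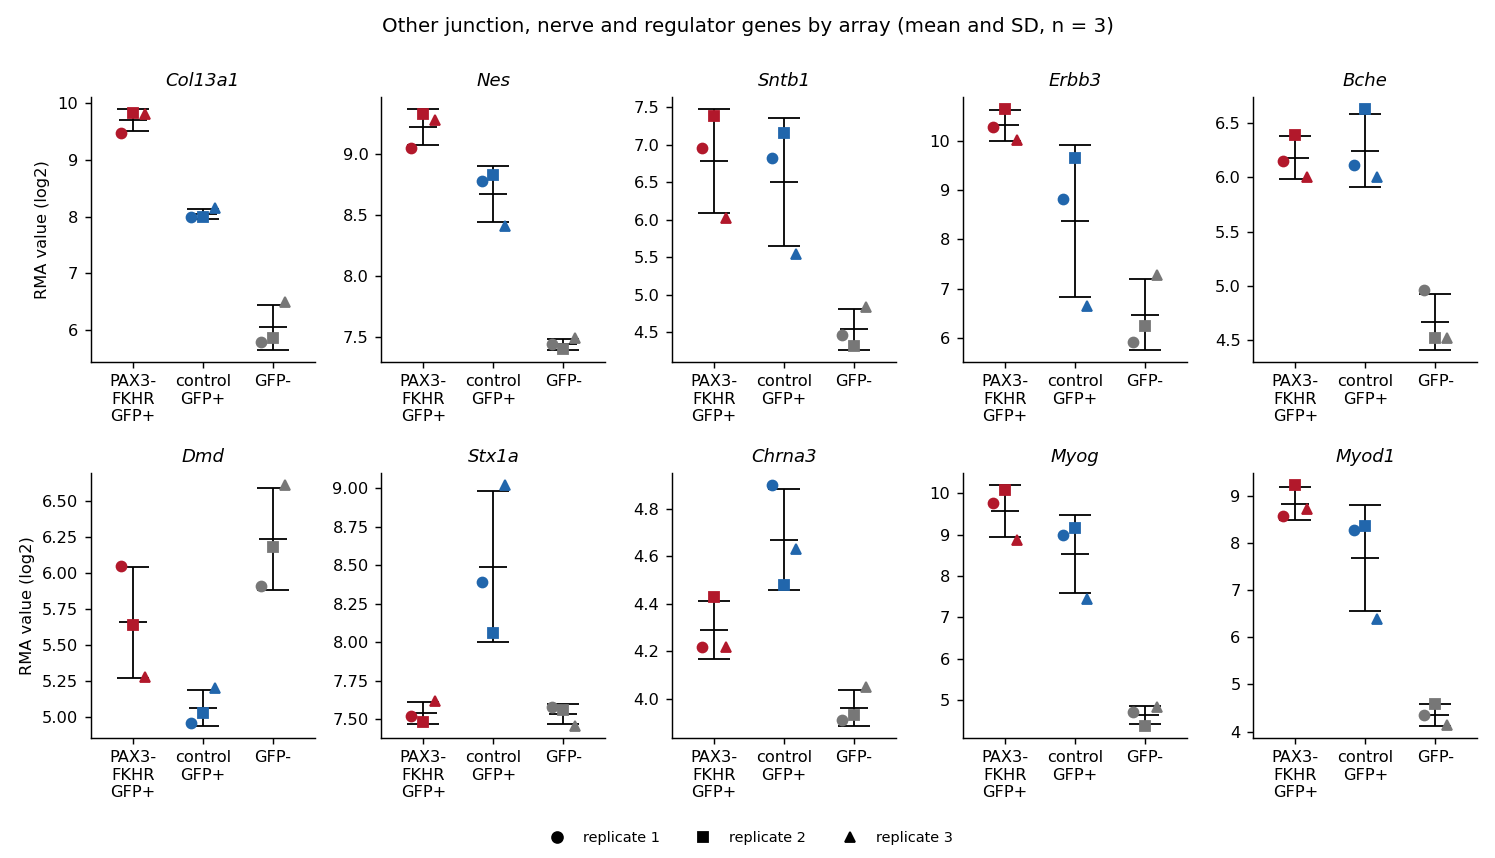
RMA values (log2, each panel with its own scale) of 10 genes of the junction, the nerve and the promoters' regulators on the 9 arrays, with group mean and SD (n = 3). Col13a1 and Nes separate all 3 groups, whereas Erbb3, Myog and Myod1 have control GFP+ replicate 3 as the lowest GFP+ array.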

How the data were processed

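RNA of sorted forelimb bud cells was amplified by a repeated protocol and hybridised to Affymetrix Mouse430_2 arrays, 3 in each of 3 groups, taken from the sample labels. The authors deposited log2 values per probe set, made with RMA (background correction, quantile normalisation and summary per probe set). Its version is not given in the sources used here, and no filter on absent calls was applied. After 64 control probe sets were set aside, 45037 were tested, 34945 of them with 1 gene symbol, 932 with more and 9160 without. One limma 3.58.1 fit (R 4.3.3, intensity trend) covered the 9 arrays. A gene passed the test where p, after Benjamini-Hochberg adjustment over all probe sets, was under 0.05 and the log2 fold change at least 0.5 in size.

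Named are all 10 members, up to 5 genes per list and comparison, by smallest adjusted p, and the 5 genes most like each of 4 subunits. Members and lists were chosen with earlier results of these data known. Fits were tested on simulated data. Deviations from the group means correlated by 0.164, 0.472 and 0.287 between same-numbered arrays of the GFP+ groups. Between their unlike-numbered arrays the correlations ran from -0.367 to 0.000384. The numbers in the titles were therefore used as pairs in the alternatives with a block and in differences within replicate numbers. The main fit is unpaired. With GFP- arrays the correlations ran from -0.288 to 0.155 for same-numbered arrays and from -0.263 to 0.322 for unlike-numbered ones. The study's local pooled error test, rebuilt from its description with 100 intensity bins, was an alternative, as were median centring, repeated quantile normalisation, no trend, array weights, the block, the arrays compared only, filters on dim or cross-hybridising probe sets, the mean of probe sets, other fold thresholds and each array left out. Promoters of 7 members came from RefSeq (GRCm38.p6). The number of arrays limits the precision.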

Additional observations from a re-analysis of the deposited data

How the results depend on the processing

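With PAX3-FKHR the count of 1 gene higher went to 0 when only the 6 arrays compared were fitted and with a replicate block on all 9 arrays, and was 0 to 1 when each array was left out in turn. It stayed at 1 under 13 of 15 other alternatives, among them the block on the 6 arrays. The 1 gene higher in control GFP+ than in GFP- cells became 4 with array weights (Chrna1, Chrnb1, Chrng and Rapsn), 2 with the local pooled error test, 0 with the block on the 6 arrays compared, 3 without control GFP+ replicate 3 and GFP- replicate 3 together (an alternative added after the values were seen) and 1 to 3 when each array was left out in turn, with 3 (Chrnb1, Chrng and Rapsn) without control GFP+ replicate 3. For PAX3-FKHR GFP+ against GFP- cells, the 4 genes higher were 3 to 5 with each array left out and 4 under all 15 other alternatives. The 1 lower, Agrn, was 0 when quantile normalized again, with the block on the 6 arrays, with the local pooled error test, with a gene's probe sets averaged, at a log2 fold change of at least 1, and without each array in turn. The block changed no other call. Sign changes were limited to genes that passed no test. With PAX3-FKHR, array weights gave 0.09 for Chrne and 0.24 for Lrp4, the local pooled error test -0.00 for Chrnd and 0.10 for Lrp4, averaged probe sets -0.01 for Dok7, and the removal of both replicate 3 arrays -0.03 for Chrnd, 0.09 for Chrne and 0.25 for Lrp4. Leaving out each array ranged from -0.03 to 0.17 for Chrnd, -0.08 to 0.09 for Chrne and -0.31 to 0.25 for Lrp4. In control GFP+ against GFP- cells, Lrp4 was -0.28 with array weights, -0.01 with the local pooled error test and -0.33 without both replicate 3 arrays (each array left out, -0.15 to 0.40), and Chrne -0.07 without both (each array left out, 0.02 to 0.22). In PAX3-FKHR GFP+ against GFP- cells, Lrp4 was -0.04 with array weights and -0.08 without both (each array left out, -0.08 to 0.29). The cause of these changes was not tested. Chrne and Musk have no value under either filter on dim probe sets, and Dok7 none without _x_at and _s_at probe sets.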

Other observations

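Of 10 measured nicotinic receptor subunits of neurons, 0 passed the test with PAX3-FKHR, and 9 of the 10 had a log2 fold change below 0 (median -0.12). Chrna3, a subunit of autonomic ganglia, was the 1 gene higher in control GFP+ than in GFP- cells (0.70, adjusted p = 0.00932). It read 4.90, 4.48 and 4.63 in control GFP+ cells, above all arrays of PAX3-FKHR GFP+ cells (4.22, 4.43 and 4.22) and of GFP- cells (3.91, 3.93 and 4.05). All these values are below the array median of 5.11, where, as for Chrne, a low transcript cannot be separated from background. The mean of the list was also below it, between 4.25 and 4.62 on the arrays. In control GFP+ against GFP- cells 9 of the 10 were above 0 (median 0.26). In PAX3-FKHR GFP+ against GFP- cells 0 of 10 passed, and 8 were above 0 (median 0.15). Over all probe sets the medians of the 3 comparisons were -0.01, 0.06 and 0.04.

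The nerve terminal genes of motor neurons gave 0 of 14 calls with PAX3-FKHR. In control GFP+ against GFP- cells 2 of 14 were higher, Stx1a, a syntaxin of synaptic vesicle fusion (0.96, adjusted p = 0.0263), and the calcium channel gene Cacna1a (0.52, adjusted p = 0.0293). Stx1a read 8.39, 8.06 and 9.02 in control GFP+ cells, against 7.52, 7.48 and 7.62 with PAX3-FKHR and 7.58, 7.56 and 7.46 in GFP- cells. Its log2 fold change with PAX3-FKHR was -0.95 (adjusted p = 0.127). Without control GFP+ replicate 3, its highest array, Stx1a differed by 0.69 between control GFP+ and GFP- cells (adjusted p = 0.0218) and by -0.68 with PAX3-FKHR (adjusted p = 0.113), and Cacna1a no longer passed against GFP- cells (0.49, adjusted p = 0.0461). The markers of neurons averaged 6.62, 6.55 and 6.44 in control GFP+, 6.39, 7.01 and 6.22 in PAX3-FKHR GFP+ and 4.93, 5.05 and 4.96 in GFP- cells, and their part in the Stx1a values was not tested. The genes of receptor assembly and glycosylation gave 0 calls of 10 in each of the 3 comparisons, with medians of -0.04, -0.06 and -0.08. Of these, Tmem35a, which helps neuronal nicotinic receptors to assemble, had the smallest adjusted p in control GFP+ against GFP- cells (0.43, adjusted p = 0.0719).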
